A study of Mus musculus with 192 samples.

Results

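The 8 genes followed here are the TNF superfamily ligands Tnfsf10, Tnfsf15, Tnfsf9, Tnfsf4 and Tnfsf13b, the TNF receptors Tnfrsf1a and Tnfrsf1b, and the death receptor Fas. They were taken by name, as 8 of the 23481 gene rows of a table of unique molecular identifier (UMI) counts, with no threshold on a measured value. A UMI marks an original cDNA molecule. All 8 were listed, and 6 passed the filter on low counts. Tnfsf4 and Tnfsf13b did not, and they are given as counts only.

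Ligands of this family are trimeric proteins made at the cell surface, many of which are also shed, and each binds a small set of receptors on neighbouring cells. Receptors with a cytoplasmic death domain, such as Fas and TNFR1 (the product of Tnfrsf1a), can assemble caspase-activating complexes, and TNFR1 also drives NF-kappaB through adaptor proteins. TNFR2 (Tnfrsf1b) lacks a death domain and recruits TRAF adaptors directly. Dendritic cells, the cells that present antigen to T cells, use several of these ligands to stimulate T cells and B cells.

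The libraries came from mouse bone marrow-derived dendritic cells, grown from female C57BL/6J mice aged 6 to 8 weeks in GM-CSF at 15 ng/mL and plated at 100000 cells per well. Every group shared these conditions. Stimulation lasted 6 hours, with ligands of innate immune sensors named in the labels PAM, LPS (lipopolysaccharide, which acts through TLR4), HMW, Zymosan (labelled zymosan depleted), SeV, cGAMP (3',3'-cGAMP, a cyclic dinucleotide that acts through STING) and CpGB. A group named Ctrl, the 7 single ligands, all 21 pairs and all 35 triplets gave 64 groups of 3 libraries. The labels do not say that the 3 libraries of a group came from separate mice or cultures, so p-values measure only the spread between these samples, which may be technical.

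Total counts ran from 46564 to 610234 per library (median 171616.5), and the Ctrl libraries were shallow at 73431 ± 14389 (SD, n = 3). The 3 Ctrl libraries together held 220294 counts, in which 3 counts equal 10.8 CPM (counts scaled to a library total of 1000000 with TMM factors), so low members are least precise in Ctrl. The 9 listed dendritic cell and macrophage genes in the table summed to between 11563 and 15588 CPM per group. Lyz2, a myeloid gene, averaged 6519 CPM of this, H2-Aa 2411 CPM and Itgax, the gene of CD11c, 311 CPM, while Flt3 was at 2.88 CPM, so the list does not tell dendritic cells from macrophages. By contrast, the T cell, B cell, NK cell and mast cell lists stayed at or below 20.3 CPM in every group (Cd3e and Gzma were at 0). The neutrophil list summed to 326 to 716 CPM. Its part in the results was not tested. Of the triplet libraries, 5 stood apart: over 1044 other genes their profiles correlated with another group by over 0.2 more than with their own. They are the libraries labelled HMW + cGAMP + CpGB replicate 1, HMW + SeV + CpGB replicate 1, PAM + HMW + SeV replicate 3, LPS + SeV + CpGB replicate 3 and HMW + SeV + cGAMP replicate 1. The first was closest to SeV + CpGB (r = 0.70 against 0.28 with its own group) and the second to cGAMP + CpGB (0.75 against 0.35), and whether their labels were exchanged was not tested. The other 3 were closest to PAM + LPS, LPS + SeV and Zymosan + cGAMP. No control, single ligand or pair was among them, and results that rest on them are given with and without them.

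The promoter windows of 4 genes are shown: Tnfsf15 and Tnfsf10, the ligand genes with the widest range of levels, and Tnfrsf1a and Tnfrsf1b, which were ordered by different ligands. Each is the 250 bases before the transcription start, 5′ to 3′ on the gene's strand, from RefSeq on GRCm38.p6, the assembly of the mm10 build named in the submitters' processing notes. The windows lie at chr4:63745060-63745309 (minus strand) for Tnfsf15, chr3:27316827-27317076 (plus strand) for Tnfsf10, chr6:125349473-125349722 (plus strand) for Tnfrsf1a and chr4:145246871-145247120 (minus strand) for Tnfrsf1b. Capitals mark matches on either strand to the interferon-stimulated response element (GAAA and GAAA with any 2 bases between), the gamma-activated site (TTCNNNGAA), AP-1 (TGANTCA) or kappaB (GGG and TTTCC with any 2 bases between, or GGG and TTCC with any 3 between).
Tnfsf15: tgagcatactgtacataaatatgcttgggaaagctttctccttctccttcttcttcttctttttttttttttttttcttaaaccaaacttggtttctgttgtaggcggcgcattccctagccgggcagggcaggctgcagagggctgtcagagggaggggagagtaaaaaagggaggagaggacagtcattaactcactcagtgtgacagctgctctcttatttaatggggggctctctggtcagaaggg
Tnfsf10: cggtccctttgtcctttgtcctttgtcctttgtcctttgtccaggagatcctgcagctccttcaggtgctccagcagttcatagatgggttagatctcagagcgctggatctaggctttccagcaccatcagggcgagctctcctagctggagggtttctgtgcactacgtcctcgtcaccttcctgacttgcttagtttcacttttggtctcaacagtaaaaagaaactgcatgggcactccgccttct
Tnfrsf1a: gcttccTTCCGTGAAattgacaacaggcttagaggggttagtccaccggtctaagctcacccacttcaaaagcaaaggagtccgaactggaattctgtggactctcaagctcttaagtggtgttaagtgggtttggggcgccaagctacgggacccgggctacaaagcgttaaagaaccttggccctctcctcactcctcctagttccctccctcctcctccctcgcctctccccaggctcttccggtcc
Tnfrsf1b: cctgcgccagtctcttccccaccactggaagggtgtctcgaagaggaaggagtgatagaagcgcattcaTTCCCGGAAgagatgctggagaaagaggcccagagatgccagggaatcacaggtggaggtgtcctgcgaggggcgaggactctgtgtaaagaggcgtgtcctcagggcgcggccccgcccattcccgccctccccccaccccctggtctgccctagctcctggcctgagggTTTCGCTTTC

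The Tnfrsf1b window held a response-element match on the opposite strand, 10 to 1 bases before the start, and a gamma-activated site match. The Tnfrsf1a window held a gamma-activated site match 244 to 236 bases before its start. The Fas window at chr19:34290409-34290658 held matches to the gamma-activated site and to AP-1, and 1 of the 2 Tnfsf13b windows held matches to the response element and to AP-1. No matches overlapped. The letters of the 4 motifs are not in the Tnfsf15 and Tnfsf10 windows. Of 32851 windows of this length over all genes, 2.98% held the response element, 7.02% the gamma-activated site, 6.75% AP-1 and 4.65% kappaB, and a match is a description of the letters only. Tnfsf9 and Tnfsf4 had no entry in this table.

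Against Ctrl, every call among the 6 tested members was a rise. A call against Ctrl needs an absolute log2 difference of 1 or more and an adjusted p under 0.05 from edgeR's quasi-likelihood test, with p-values adjusted by Benjamini-Hochberg over all tested genes. Tnfsf15 was called higher in 61 of the 63 conditions, Tnfrsf1b in 46, Tnfsf10 in 40, Tnfsf9 in 22, Fas in 10 and Tnfrsf1a in 6. Over all 4720 tested genes and the 63 conditions, 14.3% of tests were called higher and 9.03% lower. Fas and Tnfrsf1a were thus near or under that share, while Tnfsf15, Tnfrsf1b, Tnfsf10 and Tnfsf9 were above it. The 63 comparisons share the same 3 Ctrl libraries.

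**Figure D1:**
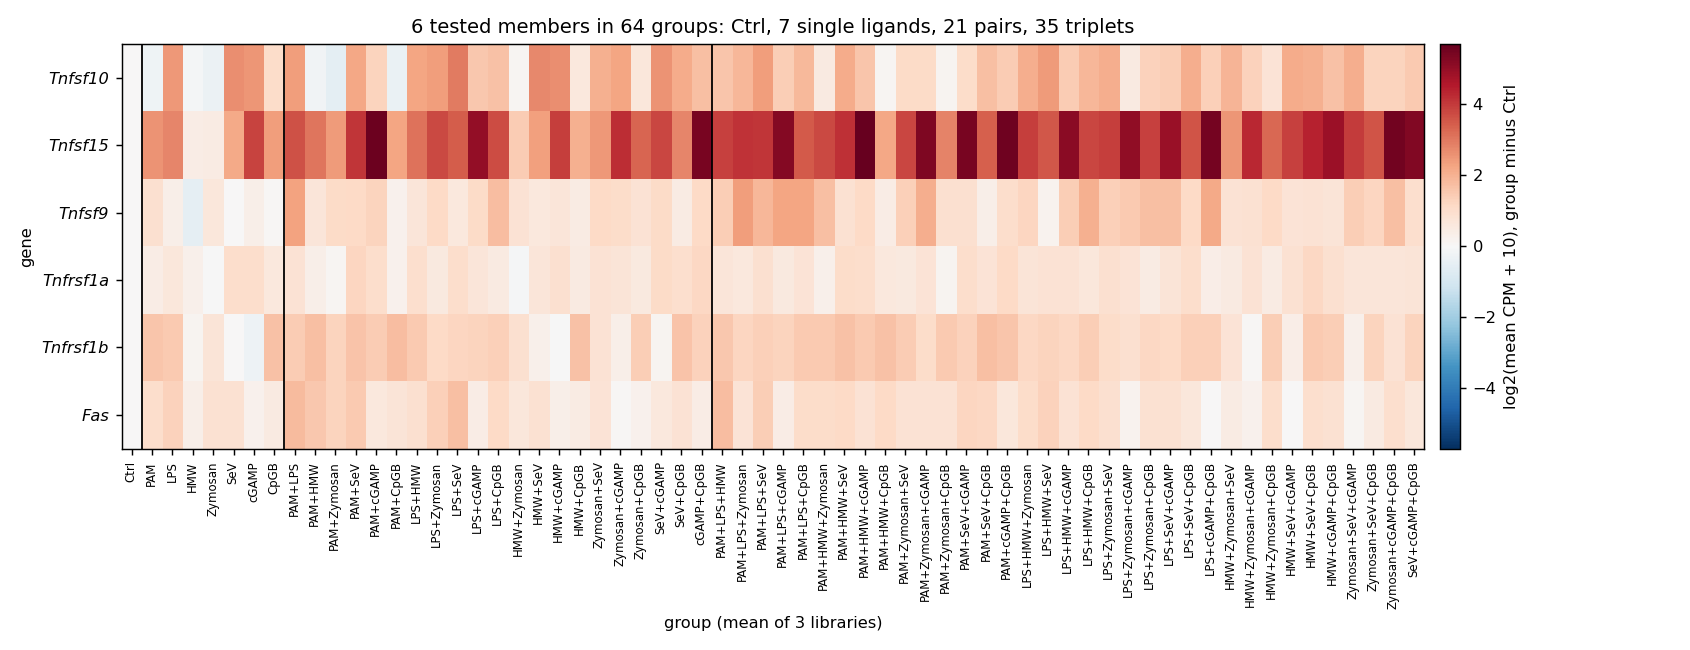
Difference of log2(mean CPM + 10) between each of the 64 groups and Ctrl for the 6 tested members, with columns in the order Ctrl, single ligands, pairs and triplets. The Tnfsf15 row is darkest in the columns that hold cGAMP together with PAM, LPS or CpGB, and Tnfsf10 is near white in PAM, HMW and Zymosan columns that hold none of LPS, SeV and cGAMP.

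Tnfsf15, which encodes TL1A, a costimulator of T cells through death receptor 3, had the widest range of the members, from 46.1 CPM in Ctrl to 2907 CPM in PAM + HMW + cGAMP. In the Ctrl libraries it was at 51.0, 34.4 and 52.9 CPM. With cGAMP alone it was at 754, 757 and 900 CPM, and all 3 libraries lay far above Ctrl (log2 difference 4.04 ± 0.60 SE, edgeR adjusted p = 6.45e-17). With LPS it was at 377, 414 and 347 CPM (2.94 ± 0.60, edgeR adjusted p = 2.80e-08). With PAM it was at 278, 313 and 366 CPM, with CpGB at 147, 325 and 364 CPM and with SeV at 319, 182 and 222 CPM. These 3 also passed the test, with log2 differences of 2.73, 2.62 and 2.27. HMW (65.9 ± 26.9 CPM) and Zymosan (68.0 ± 25.1 CPM) overlapped Ctrl and were not called. In the order of the single ligands, cGAMP stood above LPS (log2 difference 1.10, edgeR adjusted p = 0.000118) and SeV above Zymosan (1.87, edgeR adjusted p = 8.53e-05), while LPS, PAM, CpGB and SeV did not differ from their neighbours beyond their spread. Over the 21 comparisons between single ligands, 14 were called for Tnfsf15, against 13.7% of such tests over all genes.

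The pairs of cGAMP with PAM, CpGB and LPS took Tnfsf15 well past either ligand, while those with HMW, SeV and Zymosan were not called against cGAMP alone (log2 differences 0.06, -0.06 and 0.32). In PAM + cGAMP it was at 2267, 3073 and 2778 CPM, in cGAMP + CpGB at 2251, 2454 and 2415 CPM and in LPS + cGAMP at 1706, 1905 and 1851 CPM. Every one of these libraries was above every library of the single ligands. A pair was called above both of its singles when it exceeded each by a log2 difference of at least 1 and the larger p passed after adjustment. The smaller difference was 1.73 for PAM + cGAMP (edgeR adjusted p = 2.00e-13), 1.55 for cGAMP + CpGB (1.61e-10 by the same test) and 1.17 for LPS + cGAMP (7.66e-06). PAM + SeV, at 787, 1004 and 1013 CPM, was called as well (1.52, edgeR adjusted p = 2.50e-07). These 4 pairs, with PAM + LPS and LPS + CpGB for Tnfsf9, are all the members' calls in the 126 tests, against 0.353% of tests over all genes.

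**Figure D2:**
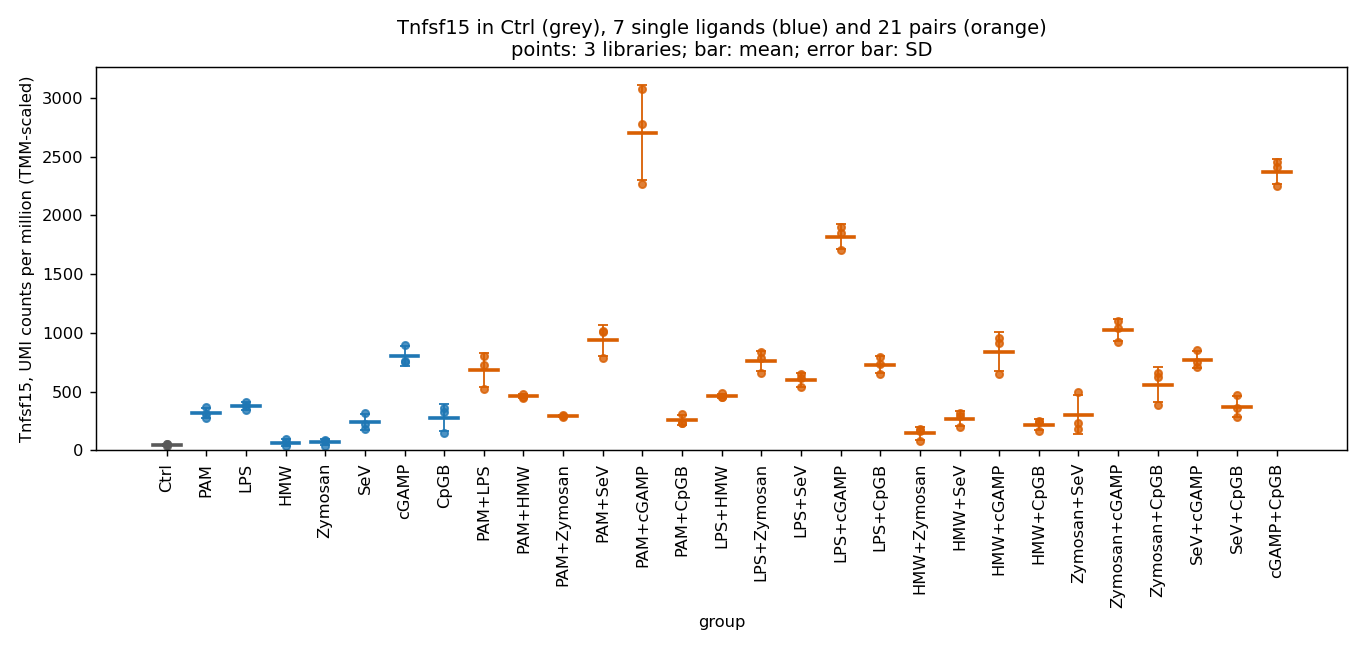
Tnfsf15 in TMM-scaled CPM (vertical axis) in each of the 3 libraries of Ctrl, the 7 single ligands and the 21 pairs, with the mean as a bar and the SD as an error bar. PAM + cGAMP, cGAMP + CpGB and LPS + cGAMP have means of 2706, 2373 and 1820.5 CPM, above all the other groups shown.

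Across all 64 groups the Tnfsf15 level separated by ligand content. The 15 groups with cGAMP and at least 1 of PAM, LPS and CpGB had means of 1657 to 2907 CPM. The 7 groups with cGAMP and none of those had means of 773 to 1091 CPM, and the 42 groups without cGAMP had means of 46.1 to 1156 CPM. The facing ends of the first and last range involve libraries that stand apart. The mean of 1657 CPM belongs to HMW + cGAMP + CpGB, whose replicate 1 was at 465 CPM against 2175 and 2333 CPM, and that of 1156 CPM to HMW + SeV + CpGB, whose replicate 1 was at 2315 CPM against 540 and 612 CPM. Without those libraries the means were 2254 and 576 CPM.

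To compare ligands without resting on Ctrl alone, the effect of adding a ligand was averaged over the 22 backgrounds that lack it (Ctrl, 6 singles and 15 pairs) and called where it was 0.5 or more in absolute log2 with an edgeR adjusted p under 0.05. Over all genes and the 7 ligands, 8.39% of these tests were called higher and 5.53% lower. The members had 14 calls higher and 2 lower among 42 tests. For Tnfsf15, cGAMP gave the largest average effect (2.45 ± 0.06 SE) and raised the mean in 22 of 22 backgrounds. LPS (1.35 ± 0.06), PAM (1.12 ± 0.06), CpGB (0.89 ± 0.06) and SeV (0.74 ± 0.06) were called too. Zymosan (0.43) and HMW (0.26) passed the p threshold but not the fold threshold. SeV raised the mean in 15 of the 16 backgrounds without cGAMP and in 0 of the 6 with cGAMP.

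That split over backgrounds was not itself tested. The pair interaction was tested, which is the pair minus both singles plus Ctrl on the log2 scale. It uses the Ctrl background alone and is 0 where log2 effects add up. For SeV + cGAMP it was -2.33 ± 0.65 (edgeR adjusted p = 0.00136), and the pair (753, 712 and 853 CPM) lay at the level of cGAMP alone. PAM + CpGB gave the largest departure for this gene, -2.93 ± 0.68 (edgeR adjusted p = 4.89e-05), with libraries at 235, 232 and 311 CPM that overlapped those of either ligand alone. SeV + CpGB, PAM + LPS, LPS + cGAMP and LPS + CpGB were also below the sum of their log2 effects, and these 4 did not pass without replicate 2 or without replicate 3 of all groups. LPS + cGAMP thus lay above both ligands and below their sum. All 15 interactions called among the members were negative, against 3.5% of tests lower and 1.08% higher over all genes.

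A single triplet was called above all 3 of its pairs, Tnfsf15 in HMW + SeV + CpGB (log2 difference 1.58 to the nearest pair, edgeR adjusted p = 5.55e-07), against 0.0115% of tests over all genes. It rests on the library labelled HMW + SeV + CpGB replicate 1. Without the 5 libraries that stand apart the difference was 0.65 (edgeR adjusted p = 1).

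Tnfsf10, which encodes the death ligand TRAIL, followed a different set of ligands. It was at 25.5, 22.9 and 8.82 CPM in Ctrl, from 5 counts in all. SeV brought it to 182, 153 and 187 CPM (log2 difference 3.19 ± 0.77, edgeR adjusted p = 1.80e-06). cGAMP brought it to 158, 178 and 129 CPM (3.01 ± 0.78, edgeR adjusted p = 1.12e-05) and LPS to 149, 159 and 145 CPM (2.97 ± 0.77, edgeR adjusted p = 7.26e-06). None of these 9 libraries overlapped Ctrl, and neighbours in the order SeV, cGAMP, LPS did not differ beyond their spread. In counts alone, SeV stood 9.50-fold above Ctrl with a 95% interval of 3.91 to 30.0, which covers counting error only. CpGB, at 64.4, 53.4 and 35.1 CPM, lay above every Ctrl library without passing the test (1.34, edgeR adjusted p = 0.199). PAM (12.3, 4.74 and 26.2 CPM), HMW (16.6 ± 11.2 CPM) and Zymosan (12.7 ± 4.5 CPM) overlapped Ctrl and were not called.

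Ligand content again ordered the groups. The 49 groups with at least 1 of LPS, SeV and cGAMP had Tnfsf10 means of 32.1 to 213 CPM, and the 15 groups with none had means of 9.52 to 51.0 CPM. The highest condition was LPS + SeV (273, 193 and 174 CPM), followed by HMW + SeV (93, 204 and 248 CPM). The lowest were PAM + Zymosan (9.93, 13.9 and 4.71 CPM) and PAM + CpGB (0, 14.0 and 22.7 CPM).

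The 3 ligands that raised Tnfsf10 did not add up. The interaction was -3.94 ± 0.85 for LPS + cGAMP (edgeR adjusted p = 1.06e-06), -3.11 ± 0.83 for SeV + cGAMP (0.000229 by the same test) and -2.74 ± 0.83 for LPS + SeV (0.00177). The value for LPS + SeV did not pass without replicate 3 (edgeR adjusted p = 0.102). LPS + SeV and SeV + cGAMP lay near the higher single ligand. LPS + cGAMP was at 58.8, 66.4 and 99.7 CPM, below every library of LPS or of cGAMP alone. The smaller of its differences from the singles was -0.93 (edgeR adjusted p = 0.272), which did not pass the rule for a pair below both. Adding cGAMP raised the Tnfsf10 mean in 11 of the 11 backgrounds without LPS and SeV, and in 1 of the 11 with either of them. Adding LPS raised it in 11 of 11 backgrounds without SeV and cGAMP, and in 4 of the 11 with either. For SeV the counts were 11 of 11 without LPS and cGAMP and 5 of 11 with either. These backgrounds share groups, so the counts are descriptions.

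PAM was the ligand whose averaged effect on Tnfsf10 was called lower. Its average effect was -0.65 ± 0.11 (edgeR adjusted p = 2.27e-07), and the mean was lower with PAM in 20 of 22 backgrounds. In the LPS background this rests on replicate 1 of PAM + LPS: the pair was at 26.2, 211 and 185 CPM against 149, 159 and 145 CPM for LPS, and the fitted log2 difference was 0.05 (edgeR adjusted p = 0.962). In Ctrl, HMW and Zymosan the level was low with and without PAM. Means without and with it were 19.1 and 14.4, 16.6 and 15.2, and 12.7 and 9.52 CPM, and none of these falls was called. In counts, PAM stood at 0.773-fold of Ctrl with a 95% interval of 0.223 to 3.00. PAM + cGAMP, at 93.4, 52.8 and 33.0 CPM, was below each of the cGAMP libraries at 158, 178 and 129 CPM (log2 difference -1.44, edgeR adjusted p = 0.00473). Among the members' 252 comparisons of a pair with one of its singles, 52 were called higher and this 1 lower, against 4.86% and 2.52% of tests over all genes. In SeV + cGAMP, adding PAM took Tnfsf10 from 161 ± 36.1 CPM to 43.7, 54.8 and 53.0 CPM (log2 difference -1.72, edgeR adjusted p = 8.45e-05). The members' 630 comparisons of a triplet with one of its pairs gave 72 rises and 15 falls, against 2.28% and 1.08% of tests over all genes. Of the falls, 14 were for Tnfsf10, and in 13 of these 14 the triplet held cGAMP and in 6 it held PAM. Averaged over backgrounds, SeV (1.15 ± 0.11), LPS (0.92 ± 0.11) and cGAMP (0.56 ± 0.11) were called higher, although cGAMP was under the fold threshold without the Ctrl background (0.44), and Zymosan (-0.44, edgeR adjusted p = 0.000838) stayed under the fold threshold.

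**Figure D3:**
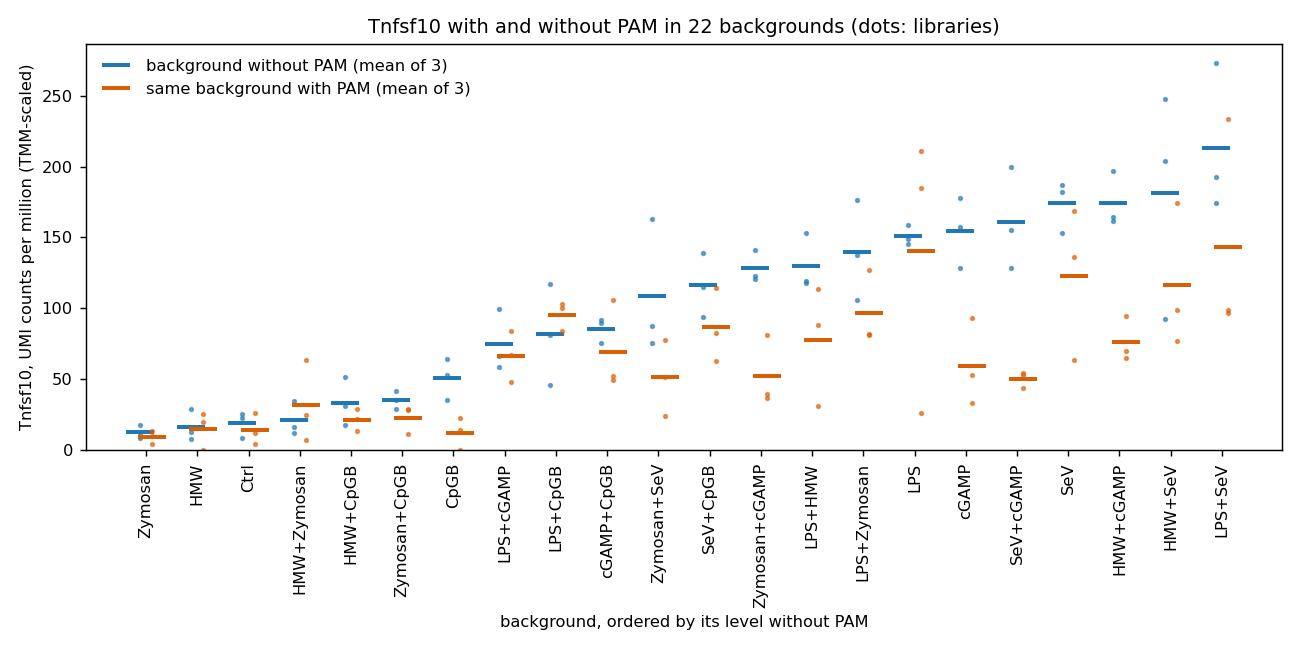
Tnfsf10 in TMM-scaled CPM (vertical axis) without PAM (blue) and with PAM (orange) in the 22 backgrounds that lack PAM, ordered by their level without it; dots are libraries and bars are means of 3. The orange bar is below the blue bar in 20 of the 22 backgrounds. In LPS this comes through 1 low library, and in Ctrl, HMW and Zymosan both bars are low and close.

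Tnfsf9, which encodes the ligand of CD137, a costimulatory receptor of T cells, was low throughout, with 6 counts in Ctrl (25.5, 22.9 and 17.6 CPM). No single ligand was called against Ctrl by edgeR, where 8.7% of tests over all genes were called higher, and 1 of the 7 had an unadjusted p under 0.05. PAM came highest at 24.7, 75.8 and 52.3 CPM (log2 difference 1.24 ± 0.69, edgeR adjusted p = 0.182). PAM differed from HMW (1.92) and from SeV (1.44), the only calls between single ligands for this gene. Among the combinations, 3 of 21 pairs were called higher than Ctrl, a share near the 13.7% of tests over all genes in pairs, and 19 of 35 triplets, against 15.7% over all genes in triplets. With DESeq2, and relative to its own centre, 14 conditions were called in all. PAM + LPS was at 96.2, 165 and 181 CPM against 35.5, 26.5 and 30.0 CPM for LPS, and it was called above both singles (1.52, edgeR adjusted p = 0.000998). LPS + CpGB was at 69.2, 141 and 85.6 CPM against 36.8, 19.4 and 13.2 CPM for CpGB, and it was called as well (1.71, edgeR adjusted p = 0.00752). Without replicate 3 of all groups neither pair passed (edgeR adjusted p = 0.208 and 0.0852), and without replicate 2 LPS + CpGB did not (0.838). PAM + cGAMP was the remaining pair called against Ctrl (1.53, edgeR adjusted p = 0.0442).

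The 6 groups with PAM and LPS had Tnfsf9 means of 74.5 to 157 CPM, and the highest of all groups was PAM + LPS + Zymosan at 146, 196 and 127 CPM. Of its 21 pair interactions none was called by edgeR, and 1 had an unadjusted p under 0.05. The averaged effects were 1.00 ± 0.10 for LPS, 0.82 ± 0.10 for PAM, 0.73 ± 0.10 for Zymosan and 0.66 ± 0.10 for cGAMP, all called. Both LPS and Zymosan raised the mean in 21 of 22 backgrounds. The lowest conditions were HMW (7.71, 16.7 and 12.9 CPM) and SeV (45.5, 7.29 and 13.3 CPM).

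Tnfsf4, the gene of OX40 ligand, had 59 counts in all libraries together, in 44 libraries and never above 3. Tnfsf13b, the gene of the B cell survival factor BAFF, had 28 counts, in 21 libraries. Both were at 0 in the 220294 Ctrl counts, which allows up to 10.8 CPM, above the highest group mean of either gene (7.94 CPM for Tnfsf4 and 8.15 CPM for Tnfsf13b). No rise over Ctrl could be detected at this depth. Pooled over libraries, Tnfsf4 stood at 2.62 CPM with cGAMP and 1.31 without, and Tnfsf13b at 1.45 with and 0.525 without. For Tnfsf4 these are 29 counts in 66 libraries with cGAMP and 30 counts in 126 without. With CpGB it stood at 1.06 CPM and without at 2.08. With so few counts per group, these pooled values are given with no test.

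Among the receptors, Tnfrsf1b rose with CpGB, PAM and LPS. It was at 689, 688 and 661 CPM in Ctrl. CpGB brought it to 2172, 2107 and 2263 CPM (log2 difference 1.64 ± 0.13, edgeR adjusted p = 4.70e-26). PAM brought it to 1968, 2132 and 1982 CPM (1.55 ± 0.13, edgeR adjusted p = 6.22e-24) and LPS to 1919, 1856 and 1938 CPM (1.43 ± 0.13, edgeR adjusted p = 2.40e-21). Replicates were tight, and these groups lay clear of Ctrl. Zymosan, at 1055, 1215 and 1182 CPM, also lay above every Ctrl library, with a log2 difference of 0.74 (edgeR adjusted p = 6.77e-06) that is under the fold threshold. HMW (757 ± 83.8 CPM) and SeV (683 ± 29.5 CPM) were not called. With cGAMP all 3 libraries were below all Ctrl libraries, at 587, 579 and 503 CPM, without passing the test (-0.34, edgeR adjusted p = 0.0789). In the order of the single ligands, LPS exceeded Zymosan by 0.69 (edgeR adjusted p = 2.92e-08) and Zymosan exceeded HMW by 0.59 (edgeR adjusted p = 6.37e-05). The neighbours CpGB and PAM, PAM and LPS, HMW and SeV, and SeV and cGAMP did not differ beyond their spread, while HMW exceeded cGAMP by 0.49 (edgeR adjusted p = 0.00194), under the fold threshold.

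The Tnfrsf1b levels of combinations ended close to those of the single ligands. The 49 groups with at least 1 of PAM, LPS and CpGB had means of 1202 to 2307 CPM, and the 15 groups with none had means of 556 to 1272 CPM, so the 2 ranges overlap only between Zymosan groups. The highest were PAM + CpGB (2331, 2410 and 2181 CPM) and PAM + HMW (2258, 2271 and 2214 CPM), close to CpGB alone. The lowest were cGAMP and HMW + cGAMP (745, 589 and 644 CPM). The interactions were negative: LPS + CpGB was -1.77 ± 0.17 (edgeR adjusted p = 5.93e-19), PAM + LPS was -1.59 ± 0.17 (7.80e-16 by the same test) and PAM + CpGB was -1.46 ± 0.17 (9.09e-14). All 6 pairs among PAM, LPS, CpGB and Zymosan were called, and no other pair was for this gene. The 4 triplets of the same ligands were the members' calls for a three-way interaction, which is the triplet minus its pairs plus its singles minus Ctrl. All were positive (PAM + LPS + Zymosan did not pass without replicate 2, nor PAM + Zymosan + CpGB without replicate 3), the largest in PAM + LPS + CpGB (1.64 ± 0.23, edgeR adjusted p = 1.48e-09), against 0.803% of tests higher over all genes. None of these 4 triplets was called above all 3 of its pairs for Tnfrsf1b. Without the 5 libraries that stand apart these 4 interactions stayed called, and 3 Tnfsf15 triplets were called for a three-way interaction too: PAM + LPS + CpGB (1.91), SeV + cGAMP + CpGB (1.95) and LPS + SeV + cGAMP (1.63).

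Averaged over backgrounds, PAM (0.63 ± 0.02) and CpGB (0.58 ± 0.02) were called higher for Tnfrsf1b, and LPS (0.36) passed the p threshold only. PAM raised the mean in 11 of 11 backgrounds without LPS and CpGB and in 9 of 11 with either, and LPS did so in 11 of 11 without PAM and CpGB and in 1 of 11 with either. Adding cGAMP lowered the mean in 19 of 22 backgrounds, with an averaged log2 difference of -0.28 ± 0.02 (edgeR adjusted p = 1.64e-22) that is under the fold threshold.

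Tnfrsf1a varied least of the tested members, from 151 CPM in HMW + Zymosan to 380.3 CPM in PAM + SeV. It was at 115, 184 and 176 CPM in Ctrl. With cGAMP it was at 333, 312 and 333 CPM and with SeV at 355, 335 and 285 CPM, above every Ctrl library. The log2 differences were 0.96 (edgeR adjusted p = 0.00133) and 0.94 (edgeR adjusted p = 0.00234), both just under the fold threshold. The 6 conditions called all held SeV or cGAMP: PAM + SeV (344, 378 and 419 CPM), SeV + cGAMP, cGAMP + CpGB, PAM + HMW + SeV, PAM + cGAMP + CpGB and HMW + SeV + CpGB. Without the 5 libraries that stand apart, PAM + HMW + SeV was under the fold threshold (log2 difference 0.88, edgeR adjusted p = 0.00407), HMW + SeV + CpGB was still called (1.10) and HMW + SeV + cGAMP was called as well (1.05). The lowest conditions were HMW + Zymosan (133, 145 and 176 CPM) and Zymosan (164, 120 and 184 CPM). No averaged effect reached the fold threshold, although 4 of the 7 had an unadjusted p under 0.05. SeV (0.33 ± 0.04) and cGAMP (0.28 ± 0.04) were positive, as was LPS (0.12 ± 0.04), and Zymosan (-0.21 ± 0.04) was negative, each past the p threshold only. The mean was lower with Zymosan in 21 of 22 backgrounds.

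**Figure D4:**
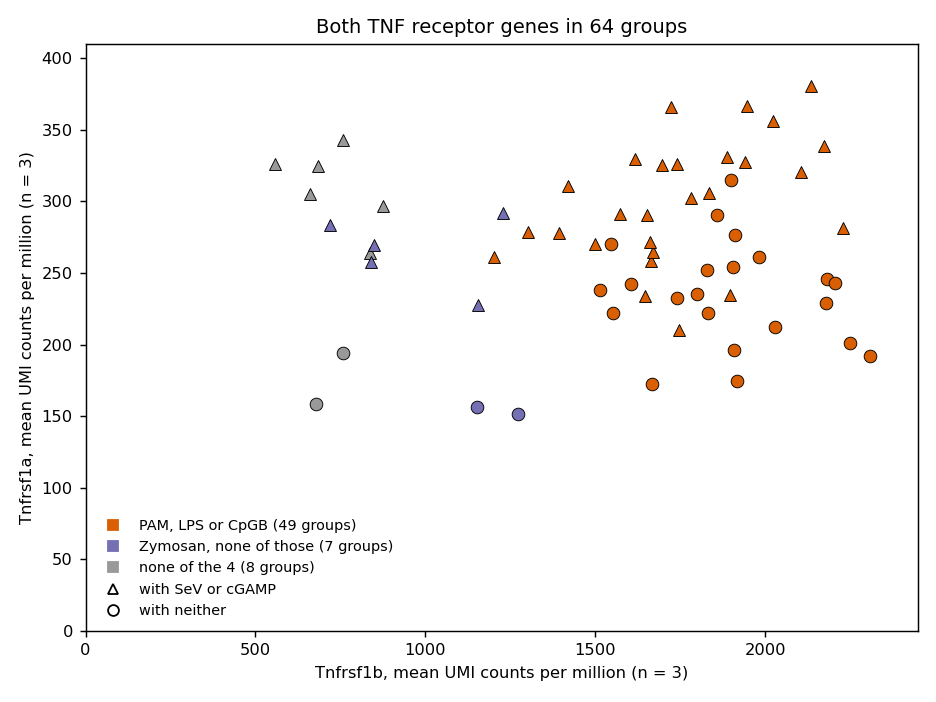
Mean CPM of Tnfrsf1b (horizontal axis) and Tnfrsf1a (vertical axis) in the 64 groups, with fill for PAM, LPS or CpGB content and triangles for SeV or cGAMP content. Orange groups lie at 1202 CPM or more on the Tnfrsf1b axis, and triangles lie at 210.05 CPM or more on the Tnfrsf1a axis.

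The TNF receptor genes were thus ordered by different ligands. The 38 groups with SeV or cGAMP had Tnfrsf1a means of 210.05 to 380.3 CPM (median 294), against 151 to 315 CPM (median 231) in the 26 groups with neither. Across the 64 group means, Spearman's rho between Tnfrsf1a and Tnfrsf1b was -0.02, while Tnfrsf1a and Tnfsf10 had a rho of 0.67. Groups share ligands and libraries differ in depth, so these values describe the table.

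Fas, the death receptor of the TNF receptor family, was low and imprecise, with 6 counts in Ctrl (12.8, 22.9 and 26.4 CPM). LPS was the single ligand called, at 56.8, 79.5 and 64.2 CPM (log2 difference 1.56 ± 0.67, edgeR adjusted p = 0.0307). Its 3 libraries lay above every Ctrl library, but the call was lost without any 1 of the Ctrl libraries (edgeR adjusted p = 0.0561 to 0.0992) and with DESeq2 (adjusted p = 0.0955). PAM, at 30.9, 47.4 and 78.5 CPM, did not pass (1.24, edgeR adjusted p = 0.169). The 10 conditions called, a share of the 63 near the 14.3% of tests over all genes, all held LPS or PAM. None of the 22 conditions with CpGB was called. The averaged CpGB effect was not called either (-0.17, edgeR adjusted p = 0.203). PAM + SeV + CpGB had a mean of 60.5 CPM, against 66.9 CPM for LPS alone. With DESeq2, and relative to its own centre, 4 conditions were called. The highest were PAM + LPS (105, 113 and 75.2 CPM) and PAM + LPS + HMW (88.3, 113 and 77.5 CPM). The lowest were LPS + cGAMP + CpGB (17.7, 25.0 and 20.3 CPM) and HMW + SeV + cGAMP (0, 29.1 and 34.2 CPM), of which the library at 0 is one that stands apart. Without it the mean of HMW + SeV + cGAMP was 31.6 CPM instead of 21.1 CPM, above Zymosan + cGAMP at 21.8 CPM, so its place in the order rests on that library.

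cGAMP was the ligand whose averaged effect on Fas was called lower. Its averaged effect was -0.54 ± 0.11 (edgeR adjusted p = 4.69e-06), and the mean was lower with cGAMP in 19 of 22 backgrounds, in 6 of 6 with LPS among them. Without replicate 3 of all groups the effect was -0.42, under the fold threshold. Adding cGAMP to PAM + LPS took Fas from 97.8 ± 20.1 CPM to 47.2, 27.6 and 18.0 CPM (log2 difference -1.61, edgeR adjusted p = 0.00862). PAM (0.47 ± 0.10) and LPS (0.36 ± 0.11) passed the p threshold but not the fold threshold, and of the 21 pair interactions of Fas none was called by edgeR or had an unadjusted p under 0.05.

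**Figure D5:**
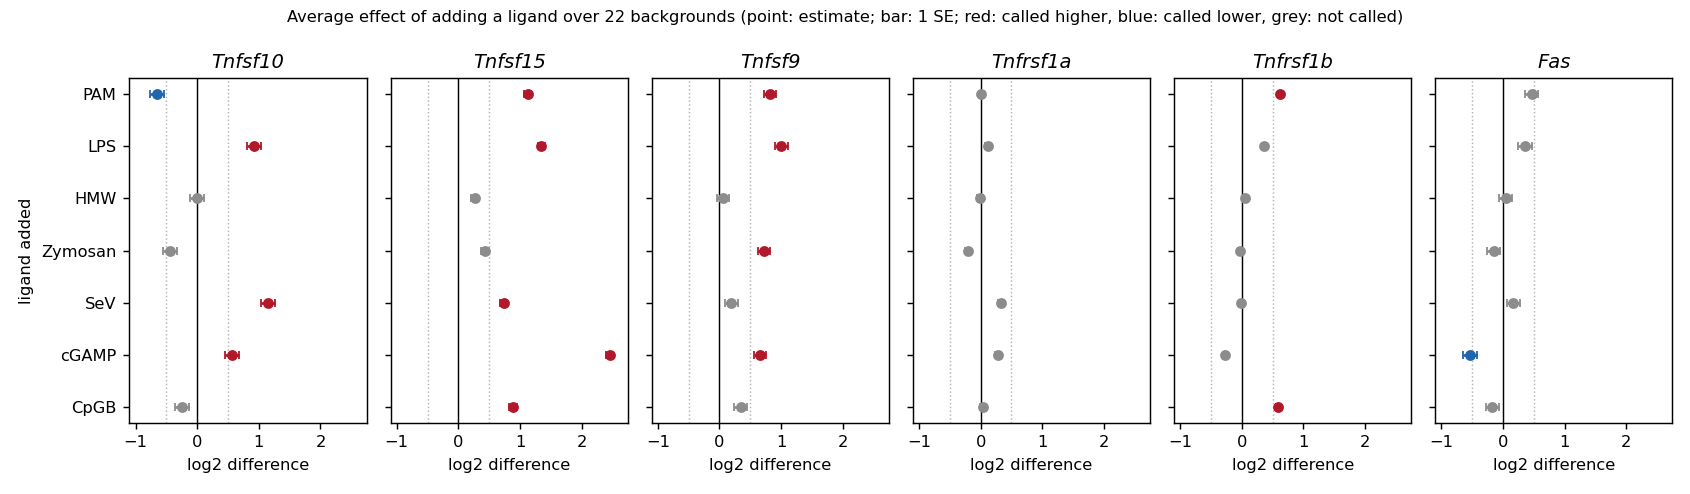
Average log2 effect of adding each of the 7 ligands over 22 backgrounds (horizontal axis) for the 6 tested members, with 1 SE as a bar and the fold threshold as dotted lines. Tnfsf15 is called higher for 5 ligands, Tnfsf10 lower for PAM and Fas lower for cGAMP.

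The genes whose group means followed each member most closely were found by Spearman's rho over the 64 groups. Tnfsf15 went with Ccrl2 (0.92), Rasa4 (0.90) and Ccl4 (0.89), Tnfsf10 with Fcgr1 (0.91), G3bp2 (0.91) and Plod3 (0.89), and Tnfrsf1b with Marco (0.92), Mtpn (0.91) and Cpd (0.91). The values were lower for Tnfsf9, with Il1rn (0.84), B4galt5 (0.81) and Srgn (0.80), and for Tnfrsf1a, with Sat1 (0.81), Tpst1 (0.80) and Cd69 (0.80). Fas had the lowest, with Msr1 (0.71), Lims1 (0.69) and Tsc22d1 (0.68). Among the members, the closest pair after Tnfsf10 and Tnfrsf1a was Tnfsf15 and Tnfsf9 (0.58).

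The rest of the family was mostly too low to test. Of 13 other TNF superfamily ligands, Tnf and Lta passed the filter, and Fasl, Cd40lg, Tnfsf11, Tnfsf13 and Eda had no count in any library. The partner receptors of the ligands above were also sparse: Tnfrsf9, the receptor of the Tnfsf9 product, had 321 counts, Tnfrsf4 had 48 and Tnfrsf25 had 9, all under the filter. Tnfrsf10b, the mouse TRAIL receptor, passed with 724 counts, and its averaged effects, from -0.41 for HMW to -0.06 for PAM, stayed under the fold threshold. Lta, which encodes lymphotoxin alpha, was called higher for CpGB (1.55 ± 0.16), LPS, cGAMP and PAM. Of 25 other receptors 6 were tested, and they moved in both directions. For LPS 1 rose and 2 fell, and for PAM 1 rose and 3 fell, where over all genes 14.9% and 6.53% were called higher and 11% and 5.89% lower. For cGAMP 1 rose and 2 fell, where 14.3% and 10.3% of all genes did.

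Cd40, the receptor for T cell help, was the gene that rose: it went from 90.9 ± 23.5 CPM in Ctrl to 1470.2 ± 50.4 CPM with LPS (SD, n = 3), and its averaged LPS effect was 2.11 ± 0.04. Tnfrsf26 was called higher for Zymosan (1.77 ± 0.16) and lower for CpGB, LPS and PAM. Tnfrsf21, death receptor 6, fell with LPS (-1.11 ± 0.24), and Tnfrsf11a, the RANK gene, with PAM (-0.93 ± 0.18). Tnfrsf11a was called lower for Zymosan as well (-0.57, edgeR adjusted p = 0.00399).

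Downstream of the death receptors, 13 of 17 listed genes were tested. For LPS 4 of the 13 were called higher and none lower, with a median log2 difference of 0.35 against -0.02 over all genes, of which 14.9% were called higher. For cGAMP 4 of 13 were called higher, with a median of 0.34 against -0.05 over all genes, of which 14.3% were called higher. The genes called for these ligands included Mlkl, the effector of necroptosis (LPS, 1.09 ± 0.07), and the inhibitors Cflar (LPS, 0.75 ± 0.03) and Xiap (cGAMP, 0.85 ± 0.08). Of 13 adaptors and regulators of the NF-kappaB arm 11 were tested, and 5 were called higher for LPS and none lower, against 14.9% and 11% of all genes. Their median was 0.18 against -0.02 over all genes. They included Traf1 (1.22 ± 0.05), Tank (0.66 ± 0.05) and Rnf31, part of the linear ubiquitin ligase (0.62 ± 0.09). Tnfaip3, the gene of the deubiquitinase A20, was called most strongly for PAM (1.03 ± 0.03).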

How the data were processed

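Per the labels' protocols, RNA of each well was reverse transcribed, pooled as cDNA and sequenced. The deposited file holds whole-number UMI counts per gene. The submitters' processing notes name mm10 and BWA 0.7.15, and the counting is not given in the sources used here. The 3 libraries of a group were taken as its replicates. Genes were kept by edgeR's filterByExpr by group (4720 of 23481 genes, 95.7% of counts), scaled by TMM and fitted with edgeR 4.0.16 in R 4.3.3 (quasi-likelihood, 1 coefficient per group, 128 residual degrees of freedom). P-values were adjusted by Benjamini-Hochberg over all tested genes. The SE is the Wald error of the fitted contrast, and CPM are TMM-scaled. Conditions named for a member are the singles, the 2 highest and 2 lowest, and pairs called for an interaction or above both singles. Other genes were named by Spearman's rho (3 per member) or as up to 4 of each list with the largest called effect. A gene that this rule selects is not reported here. The procedure was tested on simulated data. The members and gene lists were chosen with earlier results of these data known. Intervals cover counting error only. Alternatives were DESeq2, other scalings, filters and thresholds, thinned counts, a replicate block, left-out replicates and left-out libraries.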

Additional observations from a re-analysis of the deposited data

Results flagged for a closer look

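The single-ligand effects on 3 members differed with the ligand already present. This is the pair interaction on the log2 scale (the pair plus Ctrl, less each single ligand), tested with edgeR over 21 pairs and all tested genes. For Tnfsf10 (TRAIL) the interactions were -3.94 for LPS + cGAMP, -3.11 for SeV + cGAMP and -2.74 for LPS + SeV. For Tnfsf15 (TL1A) they were -2.93 for PAM + CpGB, -2.33 for SeV + cGAMP, -1.98 for SeV + CpGB, -1.87 for PAM + LPS, -1.78 for LPS + cGAMP and -1.68 for LPS + CpGB. For Tnfrsf1b (TNFR2) they were -1.77 for LPS + CpGB, -1.59 for PAM + LPS, -1.46 for PAM + CpGB, -1.08 for LPS + Zymosan, -1.03 for Zymosan + CpGB and -1.02 for PAM + Zymosan. These 15 share the same 3 Ctrl libraries, in which Tnfsf10 and Tnfsf15 had 5 and 13 counts.

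The effect of a pair of ligands on Tnfrsf1b also differed with the third ligand. The three-way interaction was 1.64 for PAM + LPS + CpGB, 1.21 for LPS + Zymosan + CpGB, 1.16 for PAM + LPS + Zymosan and 1.04 for PAM + Zymosan + CpGB.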

How the results depend on the processing

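Of the members' called single-ligand differences from Ctrl, averaged effects, interactions, pairs above both singles and the triplet above all pairs, none changed direction under any alternative run. The members' 185 calls against Ctrl were 159 with RLE scaling, 133 with library size alone, 152 with DESeq2, 214 with no filter on low counts and 222 with no fold threshold. These scalings moved the median of all genes against Ctrl by -0.16 (RLE and DESeq2) and -0.36 (library size), in medians over the 63 conditions. Thinning every library to the smallest total left 2336 genes to test and 78 calls against Ctrl, 11 higher and 10 lower between single ligands, 6 negative pair interactions, 2 pairs above both singles, 1 three-way interaction, 1 averaged fall and 0 triplets above all pairs. Without a fold threshold there were 23 averaged rises, 5 averaged falls and 10 pairs above both singles. Library size alone gave 1 positive pair interaction. Without a filter there were 8 three-way interactions. Without the 5 libraries that stand apart, an alternative chosen after seeing the data, there were 7 three-way interactions and 0 triplets above all pairs.

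Leaving out each replicate number in turn gave 158 to 187 calls against Ctrl, 1 to 3 averaged falls, 11 to 16 negative pair interactions, 4 to 8 pairs above both singles, 3 to 6 three-way interactions and 0 to 1 triplets above all pairs. Without each Ctrl library in turn there were 170 to 189 calls against Ctrl. Samples with the same replicate number did not deviate together in expression (mean r = 0.008), and the numbers were not used as pairs. Depth did go with the number: median totals were 136500, 185756 and 202712 for replicates 1, 2 and 3, and replicate 1 was the shallowest in 56 of 64 groups. With a replicate block there were 186 calls against Ctrl, 14 averaged rises, 2 averaged falls and 16 negative pair interactions.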
